A study of Mus musculus with 18 samples.

Results

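The 6 libraries described here came from the thymus of 3 Hoil ΔCd4 mice, each of which gave an MHC I low and an MHC I high fraction of CD69+ cells, and they are 6 of the 18 samples of the series. The other 12 samples are the same fractions from 3 WT and 3 Sharpin cpdm mice. Hoil ΔCd4 mice carry loxP-flanked Rbck1, the gene of HOIL-1, and a Cd4-Cre transgene, which deletes the promoter and the first exons of the gene in cells that have switched on Cd4 and leaves all other cells of the animal intact. They were on a C57BL/6 background, as were the WT mice. Sharpin cpdm mice lack SHARPIN in every cell and came from a C57BL/Ka background crossed to C57BL/6, so that strain and genotype cannot be told apart in them. The age of the mice was not given in the sources used here, and both sexes were used. All fractions were sorted after removal of dead cells and of cells that stained for MHC II, B220, Mac-1, Gr1, NK1.1, the δ chain of the TCR, CD44 or CD25. The comparison is that of the MHC I high with the MHC I low cells of the same 3 mice, over the 12798 genes that had at least 0.5 CPM (a gene's counts scaled to a common library total) in at least 3 samples and were kept by the filters that removed Xist and chromosome Y, predicted and unnamed genes.

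CD69 appears on thymocytes once their TCR has been engaged, and the amount of MHC I on their surface increases while selected cells mature from double-positive (DP) towards single-positive (SP) thymocytes. The step between the fractions therefore covers the stage in which SP cells stop responding to the selecting signal, gain the receptors that let them leave the thymus, and become able to divide. HOIL-1, HOIP and SHARPIN form the linear ubiquitin chain assembly complex (LUBAC), which attaches linear ubiquitin chains to signalling proteins of the NF-κB pathway.

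Between 10577966 and 15042152 reads per Hoil ΔCd4 library were counted on genes, within the range of the series (10577966 to 16266128). Libraries of one group differed by more than counting noise (chi-square per degree of freedom 6.49 to 13.7), so all 3 mice were counted as replicates. By Xist and the chromosome Y gene Ddx3y, Hoil ΔCd4 mice 1 and 2 were male and mouse 3 female, while all 3 WT mice were female. The MHC I high library of mouse 2 held 64.6 CPM of Xist, against 0.606 CPM in the MHC I low library of the same male animal and at most 7.49 CPM in the other male libraries, and the calls lost without it are named with the results below. The labelled sort was visible in its own gene: H2-K1, which encodes the stained H2-K molecule, stood at 209, 193.2 and 157.3 CPM in the MHC I low and at 1952, 1725 and 1750 CPM in the MHC I high libraries of mice 1, 2 and 3. As H2-K1 and Cd69 were used to sort the cells, their differences are no finding. The 6 markers of mature SP thymocytes, Klf2, S1pr1, Itgb7, Ccr7 and Il7r among them, summed to 607 to 649 CPM in the MHC I low and 1330 to 1360 CPM in the MHC I high libraries.

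Defining markers of other lineages were low. Of 6 B cell markers, Pax5 was at 0 in both fractions and Ms4a1 was at 0 in the MHC I high libraries, and the sum of the list was 3.78 to 6.04 CPM in the MHC I low and 3.41 to 5.76 CPM in the MHC I high libraries. Of the markers of thymic epithelium, Foxn1 and Krt8 were at 0 in both fractions, and the list summed to 7.18 to 10.8 and 10.1 to 11.9 CPM. Of 10 myeloid and dendritic cell markers 5 could be tested, and 3 were higher in the MHC I high cells (Cd74, Itgam and Fcer1g), with sums of 10.9 to 14 against 25.7 to 29.1 CPM, most of it Cd74, and with Siglech at 0 in the MHC I high libraries. Cd74 is also made by T cells, and the part of contaminating cells in this rise was not tested. Erythroid markers summed to at most 0.096 CPM and none could be tested. Markers of NKT and innate-like cells, of which 2 of 3 tested were higher, summed to 24.8 to 27.1 CPM in the MHC I low and 155 to 168 CPM in the MHC I high libraries, nearly all of it Il2rb, which mature T cells also express. Markers of regulatory T cells, 3 of 5 higher and 1 lower, summed to 1000 to 1130 against 500 to 638 CPM, most of it Ikzf2.

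Rbck1, the targeted gene (GRCm38 chr2:152316334-152332663), was examined first. Its level in the MHC I low libraries of Hoil ΔCd4 mice 1, 2 and 3 was 0.581, 0.779 and 0.271 CPM, and in the MHC I high libraries 3.72, 8.94 and 4.51 CPM. WT cells held 222.5 ± 6.08 CPM (SD, n = 3) in the MHC I low and 266.1 ± 2.28 CPM in the MHC I high fraction, so that the Hoil ΔCd4 mean was 0.244% of WT in the former and 2.15% in the latter. The transcript was thus far below WT in each of the 6 libraries, with at most 9 counts in an MHC I low and at most 118 counts in an MHC I high library. Within the Hoil ΔCd4 mice the residual transcript was higher in MHC I high than in MHC I low cells in 3 of 3 mice. The log2 fold change was 3.32, with a standard error of 0.266 and an adjusted p of 2.67e-07 by limma, against 0.25 in WT mice. The library with the highest residual Rbck1, that of mouse 2, was the one with 64.6 CPM of Xist. Without it the log2 fold change was 2.96 (adjusted p = 6.64e-07). Transcripts of the TCR γ locus, which are described further on, were also higher in the MHC I high fraction, and the part of either in the residual Rbck1 was not tested.

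A large part of the transcriptome of HOIL-1-deficient thymocytes differed between the fractions. In bulk fractions, a change within cells and a different mix of cells cannot be told apart. Of the 12798 genes tested, 5793 (45.3%) differed between the fractions at an adjusted p under 0.05, 3010 higher (23.5%) and 2783 lower (21.7%) in MHC I high cells. These shares are the background against which the gene lists below are to be read. Large changes were mostly increases: 936 genes rose and 389 fell by at least 2-fold, 357 rose and 75 fell by at least 4-fold, and 21 rose and 2 fell by at least 16-fold. All 3 mice showed the direction of the call for 5692 of the 5793 genes and for 1312 of the 1325 genes changed by 2-fold. The change in one mouse correlated with that in another with Pearson r of 0.746 to 0.766 across genes, which are not independent replicates. The median standard error of a log2 fold change was 0.0969. Leaving out each Hoil ΔCd4 mouse in turn left 3620 of the 5793 calls, and 1056 of the 1325 calls of at least 2-fold, in all 3 fits. Without the MHC I high library of mouse 2, 5148 genes were called, 4923 of them among the 5793.

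**Figure D1:**
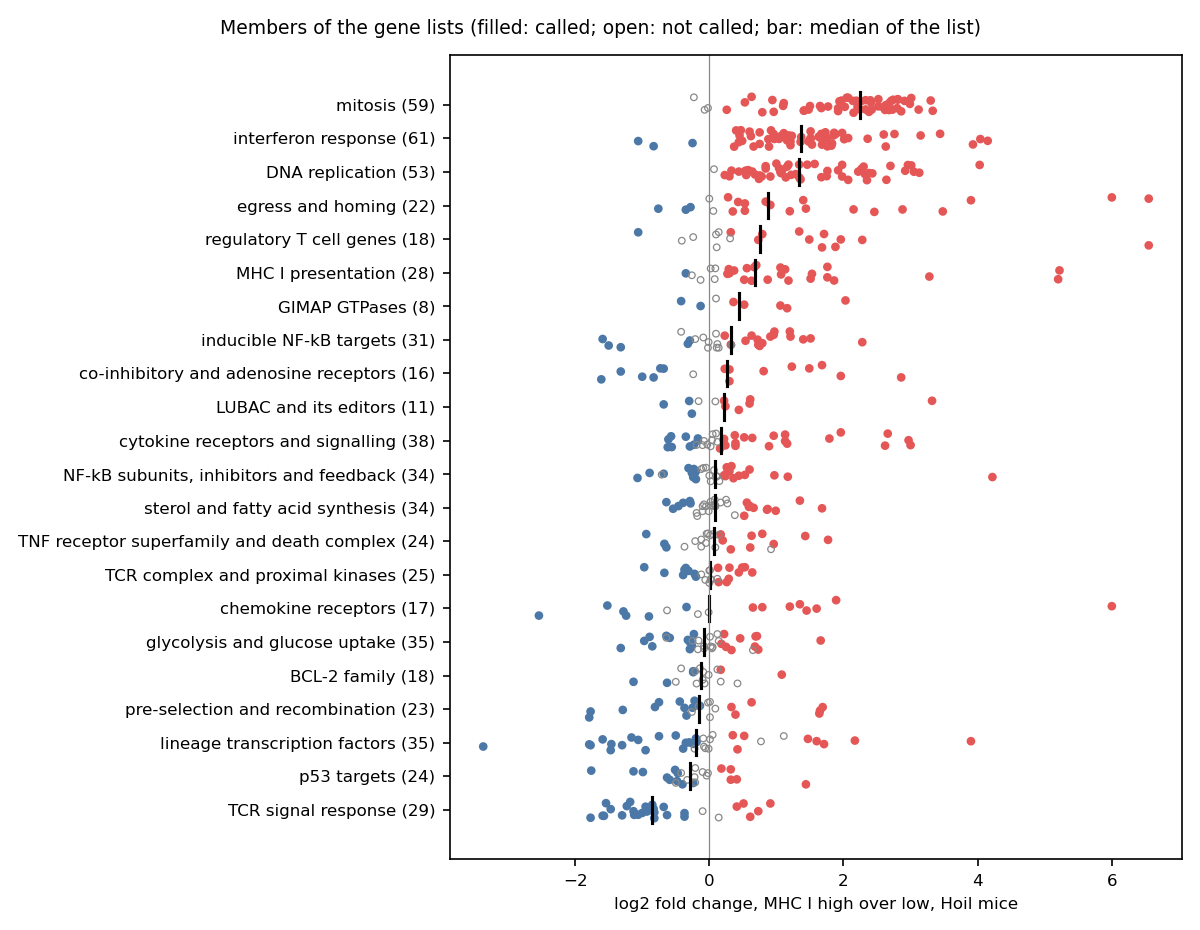
Log2 fold change of MHC I high over MHC I low cells of Hoil ΔCd4 mice (horizontal axis) for each tested member of the 22 gene lists, 1 point per gene, filled where called (red higher, blue lower) and open where not, with the number tested in brackets and a black bar at the median. Mitosis, interferon response and DNA replication genes lie almost wholly to the right of 0, with medians of 2.24, 1.37 and 1.34, and TCR signal response genes mostly to the left, with a median of −0.85.

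MHC class I genes other than the sorted one rose together. Of the 28 members of the list of MHC I heavy chains, peptide loading and proteasome genes, 22 were called higher and 1 lower, and the median log2 fold change was 0.68. The list is related to the marker used in the sort. B2m, the light chain of all MHC I molecules, rose from 350.1, 310.5 and 359.8 CPM to 1241, 1216 and 1271 CPM in mice 1, 2 and 3 (log2 fold change 1.86 ± 0.0572). The groups were far apart, as they were for H2-D1, the other classical heavy chain of this strain, which rose from between 290.1 and 309.6 to between 992.8 and 1029 CPM (1.76 ± 0.0486). The non-classical H2-Q7 stood at 3.994, 3.028 and 1.493 CPM in the MHC I low and 105.2, 88.27 and 105 CPM in the MHC I high libraries, a log2 fold change of 5.22 ± 0.457. H2-Q6 gave 5.2, but these genes are nearly identical and could share reads. Nlrc5, the transactivator of MHC I genes, rose by 1.76, the immunoproteasome subunit Psmb9 by 1.51 and the peptide transporter subunit Tap1 by 1.18, while the other transporter subunit, Tap2, was not called (0.09). Rfxank, a subunit of the factor that binds the X box of MHC promoters, was the only member of the list to fall (−0.35).

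Promoter sequences of 2 of these genes are printed because the κB motif of MHC I promoters is a binding sequence of NF-κB, the pathway in which LUBAC acts. They run from 180 to 11 bases before a transcription start in RefSeq (GRCm38.p6), 5′ to 3′ on the strand of the gene, for H2-K1 chr17:34000358-34000527 (minus strand) and for B2m chr2:122147507-122147676 (plus strand). Capitals mark the κB motif (GGGANTTTCC, or the variant of 10 letters seen in H2-K1, on either strand), whose first base lies 111 bases before the start in H2-K1 and 126 bases before it in B2m, and in B2m also the core of an interferon-stimulated response element (ISRE, GAAANNGAAA), 139 bases before the start.
H2-K1: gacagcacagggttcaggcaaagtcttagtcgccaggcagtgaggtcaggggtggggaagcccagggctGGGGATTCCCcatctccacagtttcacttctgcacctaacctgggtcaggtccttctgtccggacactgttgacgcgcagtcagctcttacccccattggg
B2m: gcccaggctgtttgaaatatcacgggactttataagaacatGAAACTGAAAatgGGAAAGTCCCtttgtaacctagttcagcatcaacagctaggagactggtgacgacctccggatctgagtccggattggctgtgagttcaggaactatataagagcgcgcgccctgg

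Over windows from 250 bases before to 50 after the start, the κB motif was found in 5 of the 23 MHC I genes with a window (21.7%), namely B2m, H2-D1, H2-K1, H2-Q6 and H2-Q7, and in 0.517% of all 32851 RefSeq promoter windows. Of the 9985 tested genes with a window, out of 12798, 0.651% held it. The ISRE core was also in 5 of the 23 (21.7%), against 3.44% of all windows and 3.7% of those tested genes. The variant spelling of the κB motif is that of the H2-K1 site, and H2-K1 is a member of this list. The κB share of the list was thus partly set by the choice of motif. As H2-Q6 and H2-Q7 are nearly identical genes, they are not separate cases, and no conclusion is drawn from that share. The κB and ISRE shares count matches of letters and not measured binding.

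Genes of the interferon response rose almost without exception. Of 61 tested, 58 were called higher and 3 lower, with a median log2 fold change of 1.37, against 1.33 for the same genes in WT mice. The highest change was that of Ifi44, from 1.162, 0.0865 and 0.6106 to 13.51, 6.289 and 11.33 CPM (4.15 ± 0.444). Ifit3, an RNA-binding antiviral protein, rose from 1.089, 0.779 and 1.289 CPM to 34.92, 12.35 and 17.38 CPM (4.04 ± 0.315), mouse 1 being the highest and mouse 2 the lowest of the MHC I high libraries, although no MHC I high library overlapped the MHC I low ones. Ifit3 and its neighbour Ifit3b (3.93) are near-identical copies whose reads may be shared. The same order of mice was seen for Mx1, a GTPase that blocks viral replication, at 35.45, 11.74 and 18.82 CPM in MHC I high cells. Among the regulators, Irf7 rose by 1.66, Irf1 by 1.21 and Irf9, a part of the factor that binds the ISRE, by 0.97. The 3 members that fell were Irf5 (−1.06), Cd274 (−0.83), which encodes the ligand PD-L1, and Irf3 (−0.25).

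The promoter of Ifit3 (GRCm38.p6, RefSeq, chr19:34583349-34583518, plus strand, 180 to 11 bases before the start) is shown for its 2 copies of the ISRE core, in capitals, which begin 156 and 122 bases before the start.
Ifit3: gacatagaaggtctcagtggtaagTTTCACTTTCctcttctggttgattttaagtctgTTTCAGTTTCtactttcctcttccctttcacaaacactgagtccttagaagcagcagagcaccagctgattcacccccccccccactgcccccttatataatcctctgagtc

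Only 44 of the 61 interferon genes (72.1%) matched a promoter window, so a share of the list with the ISRE core is void and none is drawn from it.

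Cell cycle genes rose in MHC I high cells. All DNA replication genes but one were called higher, 52 of 53 with 0 lower, and the median log2 fold change was 1.34. Mcm10, a replisome component, rose from 1.961, 2.509 and 0.746 to 21.18, 29.17 and 25.44 CPM (4.03 ± 0.305). E2f8, a late repressor of the E2F family, rose by 3.13 and Cdc6, which loads the replicative helicase, by 3.05. Subunits of that helicase rose less from higher levels: Mcm6 stood at 120.5, 109.3 and 109.8 CPM in MHC I low and at 236.3, 274 and 252.5 CPM in MHC I high cells (1.18 ± 0.07). Rpa1, a single-strand binding protein, was the member not called (0.07). Of 59 mitosis genes, 56 were called higher and 0 lower, and the median was 2.24. Ncapg, a condensin subunit, rose from 4.647, 4.498 and 2.171 to 32.26, 34.85 and 37.15 CPM (3.30 ± 0.183). Mki67, the proliferation marker Ki-67, rose from 67.39, 59.95 and 43.42 to 314.6, 395.8 and 352.5 CPM (2.68 ± 0.168), and Cdk1, the mitotic kinase, rose by 2.74. In each of these genes the lowest MHC I high library lay above the highest MHC I low library. In bulk samples, a larger share of dividing cells and more RNA of these genes per cell cannot be told apart. Ccnd2, the cyclin of the entry into the cell cycle, rose from 301.8, 308.9 and 247 to 1036, 1016 and 908.3 CPM (1.80 ± 0.0644).

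The promoters of Mcm6 (chr1:128359716-128359885, minus strand) and Ncapg (chr5:45669745-45669914, plus strand) are shown, from 180 to 11 bases before the RefSeq start in GRCm38.p6, because they carry motifs known from S-phase and from mitosis genes. Capitals mark the E2F motif (TTTGGCGC or TTTCCCGC on either strand), 110 and 47 bases before the start in Mcm6, and the cell cycle homology region (CHR, TTTGAA), 30 bases before the start in Ncapg.
Mcm6: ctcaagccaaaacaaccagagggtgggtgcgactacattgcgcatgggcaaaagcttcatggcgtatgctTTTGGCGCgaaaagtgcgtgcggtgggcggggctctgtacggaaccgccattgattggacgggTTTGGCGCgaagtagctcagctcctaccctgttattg
Ncapg: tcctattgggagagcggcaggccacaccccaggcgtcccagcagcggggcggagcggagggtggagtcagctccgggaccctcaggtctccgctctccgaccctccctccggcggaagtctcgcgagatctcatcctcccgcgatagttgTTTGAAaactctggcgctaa

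The E2F motif was in the windows of 14 of the 44 DNA replication genes that had one (31.8%), in 1.56% of all windows and in 3.53% of the tested genes with a window. The CHR was in 36 of 49 mitosis genes (73.5%), against 17.9% of all windows, 14.2% of the tested genes with a window and 18.2% of the DNA replication genes.

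**Figure D2:**
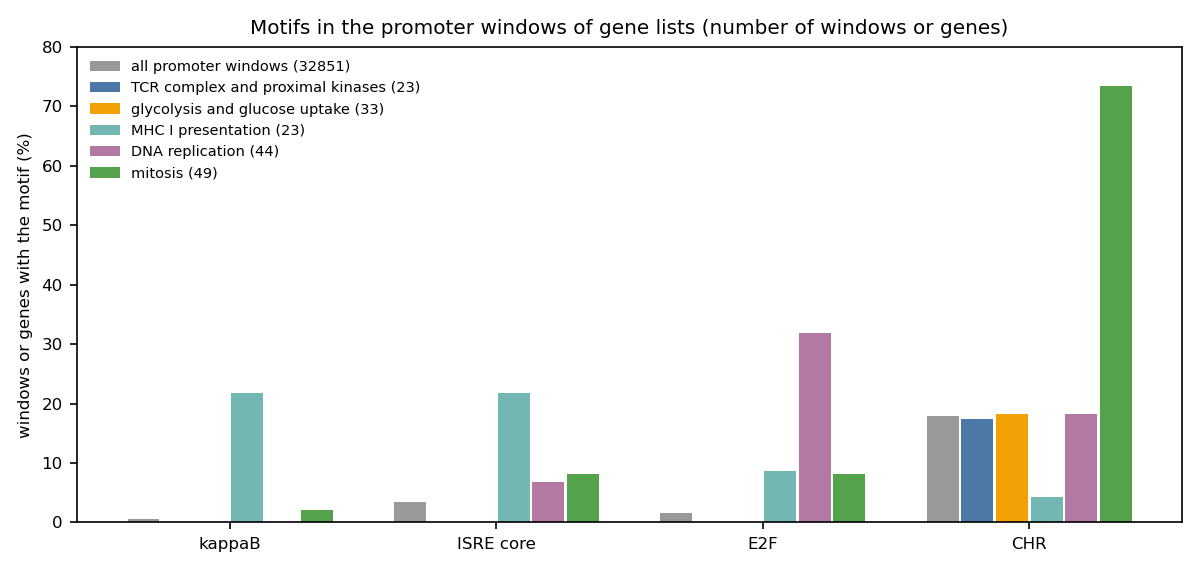
Percent of promoter windows (all RefSeq windows, grey) or of genes of 5 lists (colours, number with a window in brackets) that hold each of 4 motifs on either strand. The CHR stands out in the mitosis list (73.5%) and the E2F motif in the DNA replication list (31.8%). The κB motif was in 21.7% of the MHC I list, but its variant spelling is that of H2-K1, a member. Glycolysis genes and genes of the TCR complex held no κB, ISRE or E2F match, which lists this small can show at the shares of all windows. Lists not drawn held matches too: of 20 TNF receptor and death complex genes, 4 held the ISRE core and 8 the CHR.

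Receptors for leaving the thymus were among the genes with the highest fold changes. In the list of egress and homing genes 17 of 22 were called higher and 3 lower, and the median log2 fold change was 0.88 (0.85 with the 2 members at or under 3 counts in MHC I low cells set at their bound). Itgae, the αE integrin chain that binds E-cadherin, rose from 1.017, 0.865 and 1.9 to 118.6, 128.7 and 115.6 CPM (6.55 ± 0.241), the largest change of all genes tested. The gene overlaps Haspin, a mitotic kinase gene, and the strand setting of the counting is not given, so the 2 could share reads. S1pr1, the receptor that draws mature thymocytes into the blood, rose from 1.234, 0.692 and 0.746 to 52.84, 57.96 and 68.45 CPM (6.0 ± 0.162). Klf2, the factor that switches on S1pr1, rose from 11.91, 11.5 and 10.58 to 160.9, 177.8 and 169.1 CPM (3.90 ± 0.1). Ccr7, which guides cells to the medulla, stood at 129.7, 143.2 and 154.3 CPM in MHC I low and 318.2, 335.8 and 321.5 CPM in MHC I high cells (1.2 ± 0.0609). Itgb7, which pairs with αE, rose by 2.46. Plxnd1, a semaphorin receptor, fell by 0.76. Other guidance receptors fell as well: Ccr4 went from 285.7, 295.5 and 343.7 to 52.61, 60.84 and 46.66 CPM (−2.54 ± 0.121), Gpr183 changed by −1.52 and Ccr9 by −1.28. Over the 17 chemokine and related receptors tested, 8 were higher and 6 lower.

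**Figure D3:**
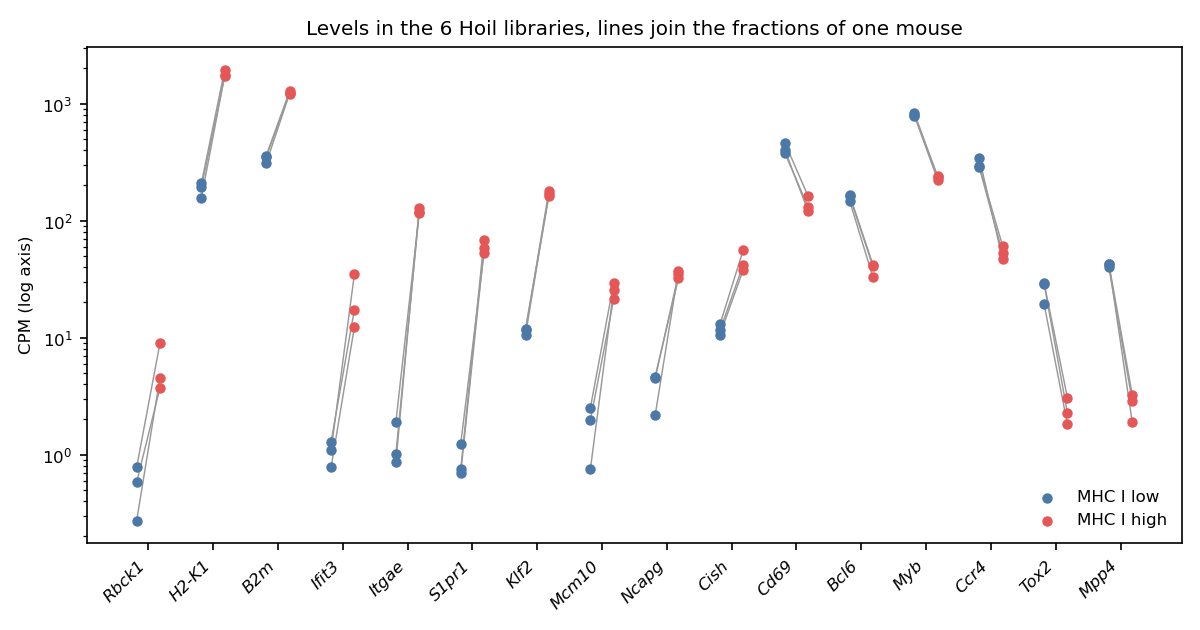
Level in CPM (logarithmic vertical axis) of 16 genes in the MHC I low (blue) and MHC I high (red) libraries of the 3 Hoil ΔCd4 mice, with lines joining the fractions of one mouse. Rbck1 remains under 10 CPM in each library, S1pr1, Itgae and Klf2 rise and Cd69, Bcl6, Myb, Ccr4, Tox2 and Mpp4 fall in all 3 mice.

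Genes that respond to TCR signalling fell. Of 29 members, 22, among them the sorted marker Cd69, were called lower and 5 higher, and the median log2 fold change was −0.85. Itm2a, a marker of positive selection, stood at 1932, 1684 and 2332 CPM in MHC I low and at 571.5, 551.3 and 625.8 CPM in MHC I high cells (−1.77 ± 0.112). Nfatc1 fell by 1.57, the early response gene Egr2 by 1.47 and Nr4a1, the gene of the reporter NUR77, by 1.12. Bcl2l11, the death effector BIM of negative selection, went from 374.2, 404 and 428.5 to 169.6, 180.2 and 199.4 CPM (−1.13 ± 0.064). The 5 members that rose were Irf4 (0.91), Myc (0.73), Spry2 (0.61), Rcan3 (0.51) and Rcan1 (0.41). Among 25 genes of the TCR complex and its kinases, 9 were higher and 8 lower with a median of 0.01, and the largest changes were those of Tespa1 (−0.97), Rasgrp1 (−0.67) and Grap2 (0.64). Cd3d, Lat and Ptprc were not called.

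Of 35 lineage transcription factors, 18 were lower and 8 higher. Tox2 went from 19.39, 28.89 and 29.44 to 1.822, 2.273 and 3.072 CPM (−3.37 ± 0.194). Myb, which sustains DP cells, fell from 787.2, 826.4 and 795.1 to 221.6, 233.5 and 238.1 CPM (−1.79 ± 0.0602). Bcl6, a transcriptional repressor outside this list, fell from 147.6, 166.2 and 161.2 to 32.8, 41.9 and 40.51 CPM (−2.02 ± 0.0673). Gata3, needed by CD4 lineage cells, changed by −1.59 and Zbtb7b, the gene of the CD4 lineage factor ThPOK, by −0.24 (adjusted p = 0.0402). Runx3, the CD8 lineage factor, rose by 1.47 ± 0.0755, from 47.49, 50.78 and 41.93 to 124.3, 132.6 and 128.2 CPM, and Foxo1, which acts upstream of Klf2 and Il7r, rose by 1.60. Cd8a rose from 230.5, 248.5 and 257.3 to 675.3, 856.9 and 761.8 CPM (1.65 ± 0.0713), and Cd4 changed by −0.25. Of the 23 genes of the pre-selection programme, 11 were lower and 6 higher. Rag1 (−0.26) and Rag2 (0.09), the recombinase genes, were not called, Dntt rose by 0.63 and Ptcra, the pre-TCR α gene, by 1.69. The sum of the 7 DP markers was 487 to 558 CPM in MHC I low and 573 to 875 CPM in MHC I high cells, with Rag1 and Cd8b1 the most abundant.

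Genes of cytokine receptors and of their signalling were split, with 20 of 38 higher, 9 lower and a median log2 fold change of 0.18. Il2rb, the β chain shared by the IL-2 and IL-15 receptors, rose from 23.75, 24.48 and 26.73 to 157, 165.5 and 153.6 CPM (2.66 ± 0.0744). Cish and Socs3, inhibitors of cytokine signalling, rose by 1.96 ± 0.116 and 2.97 ± 0.171, while Socs1, another, fell by 0.62. Il7r, the receptor chain for the survival cytokine IL-7, went from 313.8, 316.6 and 324.8 to 247.6, 236.7 and 266.5 CPM (−0.35 ± 0.0516), against −0.44 in WT and −0.45 in Sharpin cpdm mice. Il6ra (2.62) and Il18r1 (3.00) were among the larger increases.

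The NF-κB pathway, in which LUBAC acts, moved in both directions. Of 34 subunits, inhibitors and feedback genes, 14 were higher and 10 lower with a median log2 fold change of 0.09. Bcl3, a nuclear IκB protein, rose from 2.687, 3.893 and 2.035 to 56.03, 49.93 and 51.26 CPM (4.22 ± 0.159), and the adaptor Traf1 by 1.17. Nfkbid, another nuclear IκB protein, fell from 241.4, 241.9 and 227.8 to 115.2, 109.9 and 112.9 CPM (−1.07 ± 0.0631), and Tnfaip3, the gene of the deubiquitinase A20, went from 180.2, 167 and 192.3 to 111.3, 108.2 and 117.6 CPM (−0.68 ± 0.0624). Nfkbia, the gene of IκBα, rose by 0.26 (adjusted p = 0.000558) and Relb was not called (0.07, adjusted p = 0.467). Of 31 inducible target genes, 16 were higher and 5 lower with a median of 0.32. Ltb, a TNF family ligand, rose by 1.51 ± 0.0573, while Gadd45b, an inducible survival gene, fell by 1.5 ± 0.14, from 21.49, 19.2 and 22.86 to 8.958, 5.683 and 8.736 CPM.

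Of the LUBAC partners, Rnf31, the gene of HOIP, was at 89.03, 106.6 and 101.4 CPM in MHC I low and at 106.4, 103.8 and 105.6 CPM in MHC I high cells, and was not called (0.09, adjusted p = 0.223). Sharpin was at 98.68, 116.2 and 95.73 against 87.68, 81.22 and 82.47 CPM (−0.30 ± 0.0691, adjusted p = 0.000693). The call of Sharpin was lost without mouse 2 (−0.19, adjusted p = 0.0553). Of the 11 genes of LUBAC and its editors, 6 were higher and 3 lower, among them the deubiquitinase Cyld (0.44) and the kinase Ripk1 (0.61) on the higher side, and Otulin, which cuts linear chains, was not called (−0.16).

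Of 18 survival and death genes of the BCL-2 family, 2 were higher, 4 lower and 12 not called. The share called was 33.3%, against 45.3% of all genes tested. In WT mice 4 of these genes were higher and 7 lower, and in Sharpin cpdm mice 1 was higher and 8 lower. Besides Bcl2l11, the death effector Bbc3 fell by 0.63 and Bax by 0.24, Bmf rose by 1.08, and Bcl2 itself went from 402.6, 454.7 and 455 to 389.4, 371.9 and 354.6 CPM (−0.24 ± 0.0551). The call of Bcl2 was lost without mouse 3 (−0.17, adjusted p = 0.0581). Of 24 TNF receptor and death complex genes, 9 were higher and 3 lower. Tnfrsf25 (1.43), Tnfrsf1b (0.96) and Tnfrsf4 (0.79) rose and Cd27 fell, from 693.5, 728.2 and 755.2 to 377.8, 380.8 and 377.8 CPM (−0.94 ± 0.0474). Of 24 p53 target genes, 10 were lower, 5 higher and the median was −0.29, with Gadd45a changed by −1.76.

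Of 35 genes of glycolysis and glucose uptake 10 were higher (28.6%) and 12 lower (34.3%), against 23.5% and 21.7% of all genes tested. Ldhb (−1.32) and the transporter gene Slc2a3 (−0.32) fell, and Slc16a1, a lactate transporter gene, and Pdk1 rose by 0.71 and 0.68. Of 34 sterol and fatty acid genes 10 were higher (29.4%) and 6 lower (17.6%), near the shares of all genes, with Abca1 (1.68) at the top. GIMAP GTPases, which support the survival of T cells, rose in 5 of 8 cases and fell in 2, Gimap9 (−0.42) being one, with Gimap3 at 136.2, 225.5 and 127.5 against 616.3, 660.8 and 608.7 CPM (2.03 ± 0.147).

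Genes of regulatory T cells were higher in 11 of 18 cases and lower in 1. Foxp3, their defining factor, went from 0.944, 1.038 and 0.882 to 3.34, 2.652 and 3.936 CPM (1.71 ± 0.283), and Ctla4 rose by 1.96. Ikzf2, the gene of HELIOS, fell from 1063, 942.3 and 973.5 to 485.7, 417.9 and 537.1 CPM (−1.06 ± 0.096). Il2ra, the gene of CD25, a surface protein used to remove cells in the sort, was not called (0.10, adjusted p = 0.694). Among co-inhibitory receptors 9 of 16 were higher and 6 lower, with Nt5e (1.68) and Ctla4 on one side and Tigit (−1.61) and Pdcd1 (−1.0) on the other.

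Among genes with at least 10 CPM in the higher fraction, several with large changes belonged to no list. Rflnb, an actin regulator, rose by 5.78 ± 0.261, from 0.218, 0.26 and 0.339 to 18.3, 24.4 and 14.59 CPM. Adgrg5, an adhesion receptor gene, rose from 1.961, 2.682 and 2.714 to 105.1, 134.4 and 115.6 CPM (5.58 ± 0.117), and Nkg7, of cytotoxic granules, rose by 5.18. The retinoic acid receptor gene Rarg rose by 5.06, the protease gene Adam19 by 4.76 and Drc1 by 4.43. Among genes with at least 10 CPM in one fraction, Mpp4 fell most, from 42.92, 42.47 and 39.89 to 1.898, 3.258 and 2.88 CPM (−3.91 ± 0.155). The neighbours Dmpk (−3.84) and Dmwd (−3.77) on chromosome 7 and the non-coding C030034L19Rik (−3.77) came next. Fosb, an immediate early gene, fell by 2.75 and Edaradd, an adaptor gene of the NF-κB pathway, by 2.65.

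Transcripts of the TCR γ locus, summed over 15 segments, stood at 2.83, 2.51 and 3.73 CPM in the MHC I low and at 18.7, 29.4 and 43.9 CPM in the MHC I high libraries of mice 1, 2 and 3. WT cells held 2.56 to 2.89 and 10.9 to 12.3 CPM, and Sharpin cpdm cells 2.7 to 3.26 and 13.3 to 17 CPM. Each Hoil ΔCd4 MHC I high library was thus above the 6 other MHC I high libraries. All 8 segments that could be tested rose in Hoil ΔCd4 mice. For the 6 of them with more than 3 counts in an MHC I low library, the log2 fold changes ran from 2.34 (Trgc1) to 4.06 (Trgv2), against 0.82 and 2.85 for these genes, respectively, in WT mice. The test of the difference called none of the 8, with adjusted p from 0.212 (Trgc1) to 0.929 (Trgj2). Of the 4 markers of γδ T cells, Trdc, Trgc1 and Trgv4 were higher and Sox13, a factor of one γδ subset, was lower (−1.17). Their sum was 34.6 to 39.7 CPM in MHC I low and 43.5 to 62.4 CPM in MHC I high cells. Cells with the δ chain on their surface had been removed in the sort.

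The same step was then compared with that in WT mice, to ask which changes between the fractions differ in Hoil ΔCd4 mice. Changes in Sharpin cpdm mice are given for some genes, as a difference from WT mice need not be particular to the loss of HOIL-1. In WT mice 6956 genes (54.4%) were called between the fractions and in Sharpin cpdm mice 6991 (54.6%). Called in both Hoil ΔCd4 and WT mice were 4920 genes, 4912 of them in the same direction, which is 84.8% of the Hoil ΔCd4 calls and 70.6% of the WT calls. Of the 1325 genes changed by at least 2-fold in Hoil ΔCd4 mice, 1190 were called in the same direction in WT mice. The log2 fold changes of the 2 genotypes correlated with r = 0.884 across genes, which describes these mice and is not a test. The difference itself, the change in Hoil ΔCd4 minus that in WT mice, was called for 51 genes (0.398%), 38 where the change was more positive (0.297%) and 13 where it was more negative (0.102%) in Hoil ΔCd4 mice. Unadjusted p was under 0.05 for 1338 genes. With the mouse as a fixed replicate block in place of the random one, 77 genes were called, 38 of them among the 51.

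**Figure D4:**
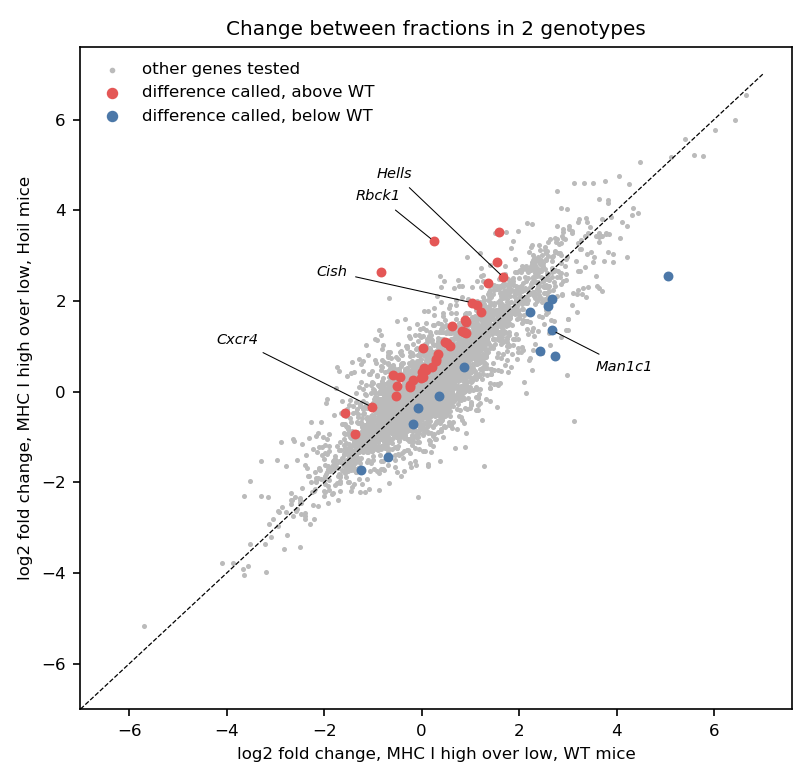
Log2 fold change of MHC I high over MHC I low cells in WT mice (horizontal axis) and in Hoil ΔCd4 mice (vertical axis), 1 point per tested gene, with genes whose difference was called coloured (38 above WT red, 13 below WT blue) and the line of equality dashed. Most genes lie along the line, and Rbck1, Cish and Hells lie above it and Man1c1 below it.

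This count rested on single mice. It was 33 without Hoil ΔCd4 mouse 1, 7 without mouse 2, 0 without mouse 3 (1140 genes at unadjusted p under 0.05), 11 without WT mouse 1 and 0 without WT mouse 3 (855 genes at unadjusted p under 0.05). Without the MHC I high library of Hoil ΔCd4 mouse 2 it was 10. The fold differences of the genes below kept their direction in each of these fits, except for Gzma, for which this was not checked. For the genes described first, each mouse's change in log2 CPM is therefore given. As the WT mice were all female and 2 of the Hoil ΔCd4 mice male, sex differed between the genotypes, and its part in these differences was not tested.

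Cish, an inhibitor of STAT5 signalling, differed from WT mice. It stood at 10.6, 11.5 and 12.96 CPM in MHC I low and at 38.11, 42.13 and 56.35 CPM in MHC I high cells of Hoil ΔCd4 mice, and at 14.95 ± 0.209 and 30.23 ± 2.47 CPM (SD, n = 3) in WT cells. The change was 1.84, 1.87 and 2.11 in the Hoil ΔCd4 and 0.87, 1.07 and 1.09 in the WT mice, a difference of 0.92 ± 0.15 (adjusted p = 0.00422). Pim1, a kinase gene that STAT5 induces, gave changes of 0.07, −0.02 and 0.29 in Hoil ΔCd4 mice, against −0.40, −0.58 and −0.57 in WT mice (0.63 ± 0.116, adjusted p = 0.00805). In Sharpin cpdm mice Pim1 changed by −0.05, which was not called different from Hoil ΔCd4 mice (adjusted p = 0.5). For both genes each Hoil ΔCd4 mouse lay above each WT mouse. Cxcr4, the receptor that holds DP cells in the cortex, went from 64.41, 58.04 and 59.77 to 39.86, 45.84 and 58.18 CPM in Hoil ΔCd4 mice. Its changes of −0.69, −0.34 and −0.04 were each smaller than the −1.0, −1.06 and −1.08 of WT mice (0.69 ± 0.123, adjusted p = 0.00805), and mouse 3 showed almost none. In Sharpin cpdm mice Cxcr4 changed by −0.64, which was not called different from Hoil ΔCd4 mice (adjusted p = 0.233). The fall of Cxcr4 within Hoil ΔCd4 mice was no longer called without mouse 1 (−0.19, adjusted p = 0.158).

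DNA replication genes were the list with the most members that differed from WT, 8 of 53, all with a larger rise in Hoil ΔCd4 mice, where 0.297% of all genes tested had a more positive change. The median log2 fold change of the list was 1.34 in Hoil ΔCd4, 0.91 in WT and 1.10 in Sharpin cpdm mice. Against Sharpin cpdm mice, Mcm3 was the only member of the list called different. The 8 genes were Uhrf1 (0.69, adjusted p = 0.00489), Fen1 (0.62, 0.0441), Mcm2 (0.54, 0.0441), Mcm3 (0.53, 0.0124), Rrm1 (0.51, 0.00489), Prim2 (0.50, 0.0498), Slbp (0.42, 0.0441) and Mcm4 (0.37, 0.0441), given as log2 differences. Uhrf1, which maintains DNA methylation behind the replication fork, stood at 46.33, 37.46 and 37.18 CPM in MHC I low and 109.2, 133.4 and 114.4 CPM in MHC I high cells of Hoil ΔCd4 mice. WT levels were 40.7 ± 1.41 and 75.82 ± 1.7 CPM, so that the MHC I high fraction held the larger gap. Hells, a chromatin remodeller of dividing cells outside the list, went from 10.82, 13.67 and 12.55 to 62.71, 74.48 and 72.29 CPM, and its change of 2.53, 2.44 and 2.52 exceeded the 1.69, 1.66 and 1.68 of WT mice (0.84 ± 0.133, adjusted p = 0.00422). Rrm1, the large subunit of ribonucleotide reductase, changed by 1.16, 1.44 and 1.36 against 0.83, 0.93 and 0.77. Without the MHC I high library of mouse 2, Uhrf1, Hells and Cish were still called, and Fen1, Mcm2, Mcm3, Mcm4, Prim2, Rrm1 and Slbp were not. With all samples kept, DESeq2 did not call Fen1 (adjusted p = 0.102), Mcm4 (0.129), Prim2 (0.3) or Slbp (0.243). Over 12 fits with other settings or samples left out, the call of Prim2 was lost in 11, Slbp in 10 and Mcm2 in 9. Those of Fen1 and Mcm4 were lost in 7, Mcm3 in 5 and Rrm1 and Uhrf1 in 4. Of the 59 mitosis genes only Kif23, a kinesin of cytokinesis, passed the test of the difference from WT mice (0.44, adjusted p = 0.0215). Against Sharpin cpdm mice 6 of the 59 were called different, where 0.805% of all genes tested were. The list medians were 2.24 in Hoil ΔCd4, 1.83 in WT and 2.56 in Sharpin cpdm mice.

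**Figure D5:**
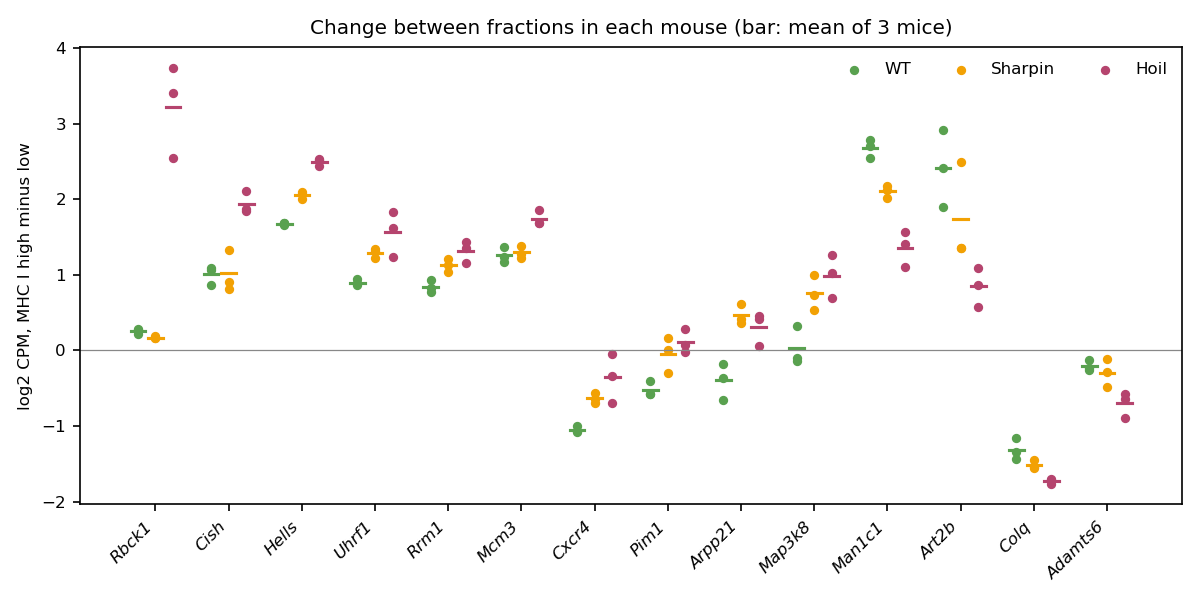
Log2 CPM of the MHC I high minus that of the MHC I low fraction in each mouse (points) and its mean over 3 mice (bars) for 14 genes whose change was called different between Hoil ΔCd4 (purple) and WT mice (green), with Sharpin cpdm mice in orange. The 3 Hoil ΔCd4 points lie above the 3 WT points for the 10 genes on the left and below them for Man1c1, Art2b, Colq and Adamts6.

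A few further differences concerned signalling genes. Map3k8, a kinase gene of the NF-κB pathway, gave changes of 0.69, 1.26 and 1.02 in Hoil ΔCd4 mice, against 0.33, −0.14 and −0.10 in WT mice (0.93 ± 0.195, adjusted p = 0.0258), starting from a mean of 4.547 CPM in Hoil ΔCd4 and 12.25 CPM in WT MHC I low cells. In Sharpin cpdm mice Map3k8 rose by 0.75, which was not called different from Hoil ΔCd4 mice (adjusted p = 0.64). Arpp21, a gene of DP cells, gave changes of 0.06, 0.41 and 0.46 in Hoil ΔCd4 and −0.18, −0.36 and −0.65 in WT mice (0.78 ± 0.153, adjusted p = 0.0215). Arpp21 rose by 0.51 in Sharpin cpdm mice, also not called different from Hoil ΔCd4 mice (adjusted p = 0.632). Its change within Hoil ΔCd4 mice (0.33) was no longer called without mouse 2 (adjusted p = 0.191), without mouse 3 (0.261) or without the MHC I high library of mouse 2 (0.138). Among genes below WT, Man1c1, a Golgi mannosidase gene, rose by 1.35 in Hoil ΔCd4 and 2.68 in WT mice (−1.33 ± 0.238, adjusted p = 0.00805). It went from 5.083, 3.633 and 4.071 to 11.01, 10.91 and 10.94 CPM in Hoil ΔCd4 and from 1.486 ± 0.235 to 9.892 ± 0.997 CPM in WT mice. The MHC I high levels were alike and the gap between genotypes lay in the MHC I low cells. Art2b, of a family of near-identical genes, gave −1.53 (adjusted p = 0.0267), Adamts6 −0.53 (0.00805), Colq −0.49 (0.021), Wdyhv1 −0.46 (0.0284) and Ahcyl2 −0.31 (0.0267). Without the MHC I high library of Hoil ΔCd4 mouse 2 the differences of Map3k8 (adjusted p = 0.088), Arpp21 (0.127), Adamts6 (0.0782), Colq (0.0912), Wdyhv1 (0.0587) and Ahcyl2 (0.11) were not called, and those of Man1c1 and Art2b were. Gzma, a granzyme gene of cytotoxic lymphocytes chosen after its values were seen, went from 1.598, 0.692 and 1.425 to 10.78, 13.56 and 19.49 CPM in Hoil ΔCd4 mice (3.52, against 1.59 in WT and 3.41 in Sharpin cpdm mice, adjusted p of the difference 0.0176). Its order over the 3 MHC I high libraries was that of the TCR γ transcripts, and the part of γδ cells in it was not tested. The call of Gzma was lost without Hoil ΔCd4 mouse 3 and without WT mouse 3, as no gene was called in those fits.

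Against Sharpin cpdm mice, the difference in change was called for 103 genes (0.805%), 53 more positive (0.414%) and 50 more negative (0.391%) in Hoil ΔCd4 mice, and for 393 genes with the mouse as a fixed replicate block, 101 of them among the 103. Without Hoil ΔCd4 mouse 1 the count was 19, without mouse 2 it was 24 and without the MHC I high library of mouse 2 it was 19. Without Sharpin cpdm mouse 1, 2 or 3 it was 47, 28 or 18. This comparison uses the same Hoil ΔCd4 libraries as that with WT mice. Cish differed, with a rise of 1.01 in Sharpin cpdm mice (0.95 ± 0.153, adjusted p = 0.00131), and so did Mcm3 (0.43, adjusted p = 0.0412), a call lost without any 1 of the 6 mice and without the MHC I high library of Hoil ΔCd4 mouse 2 (adjusted p = 0.159). Itgb3, the β3 integrin gene, rose from 176.9, 203.2 and 178.4 to 434.4, 452.4 and 431.4 CPM in Hoil ΔCd4 mice, a change of 1.30, 1.15 and 1.27 against 0.68, 0.62 and 0.65 (0.62 ± 0.0892, adjusted p = 0.000291). Bcl2 fell less in Hoil ΔCd4 mice, with changes of −0.05, −0.29 and −0.36 against −0.63, −0.80 and −0.75 (0.49 ± 0.0725, adjusted p = 0.000291). Ccnd2 rose more (0.50, adjusted p = 0.00188), Myb (−0.48, adjusted p = 0.00147) and Ikzf2 (−0.63, adjusted p = 0.0294) fell more, and Cd8a (−0.51, adjusted p = 0.00892) rose less. The call of Ikzf2 was lost without that library (adjusted p = 0.0634), without Hoil ΔCd4 mouse 1 or 2 and without Sharpin cpdm mouse 2 or 3, and that of Cd8a without Sharpin cpdm mouse 2 (adjusted p = 0.0934). Tspan32, chosen for its p, had the smallest one (−1.57 ± 0.111, adjusted p = 2.24e-10), with a rise of 0.68, 0.43 and 0.61 in Hoil ΔCd4 and of 2.46, 1.97 and 2.03 in Sharpin cpdm mice. The differences of Slc28a2b (−1.29), Ift80 (−0.58) and Bend4 (−1.16) were also called, and strain cannot be told apart from genotype for any of these genes.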

How the data were processed

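RNA from sorted thymocytes was sequenced as 75-base single-end reads. The authors aligned the reads to mm10 with Subread and summarised them over genes by featureCounts, using the RefSeq annotation it ships with, and the deposited values are raw counts per gene in each sample. Versions and the settings for strand and for reads with several matches were not given in the sources used here, so overlapping and near-identical genes are uncertain. Of 27179 genes, 25275 were matched to symbols, and the 1904 unmatched ones held 0.655% of counts. Following the study's methods, 13739 genes reached 0.5 CPM or more in 3 or more samples. Of these, Xist and chromosome Y, predicted and unnamed genes were removed, which left 12798. Library sizes were scaled by TMM (edgeR 4.0.16). Log2 CPM (prior count 1) of all 18 samples was fitted in limma 3.58.1 (R 4.3.3) with 6 groups, sample weights, the mouse as a random block and robust trended variances. The contrasts were MHC I high minus MHC I low in each genotype and the difference of that change between Hoil ΔCd4 and WT or Sharpin cpdm mice. Genes with a Benjamini-Hochberg adjusted p under 0.05 were called, and p-values in the text are limma's unless another tool is named. Errors of fold changes are standard errors.

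Both fractions came from the same animal, which pairs them, and the deviations of the 2 fractions of a mouse from their group means correlated with r from 0.0702 (WT mouse 1) to 0.256 (Sharpin cpdm mouse 1). The blocked value is therefore part of each result. Alternatives tried were DESeq2 1.42.0, the quasi-likelihood test of edgeR, other filters, scalings, weights and blocks, and leaving out mice or libraries. The scripts were tested on simulated data. The members and gene lists were chosen with earlier results of these data known. Named genes were the 12 most changed in each direction among those with at least 10 CPM in the higher fraction and the same direction in all 3 mice, genes the study names or sorts on, the most changed members of each list and the genes with the smallest p of each difference, and any other gene named was chosen after its values were seen. Motifs were searched on both strands of RefSeq promoter windows (GRCm38.p6), which 9985 of the 12798 tested genes matched by gene identifier. Depth is that of the counts, 10577966 to 16266128 per sample. Some genes are not reported here.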

Additional observations from a re-analysis of the deposited data

Results flagged for a closer look

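The change between fractions differed between Hoil ΔCd4 and WT mice, by limma's test of the difference, for 23 of the named genes. The change was more positive in Hoil ΔCd4 mice for Rbck1 (3.07 on the log2 scale), Map3k8 (0.93), Cish (0.92), Hells (0.84), Gtse1 (0.81), Arpp21 (0.78), Cxcr4 (0.69), Uhrf1 (0.69), Pim1 (0.63), Fen1 (0.62), Mcm2 (0.54), Mcm3 (0.53), Rrm1 (0.51), Prim2 (0.50), Kif23 (0.44), Slbp (0.42) and Mcm4 (0.37). It was more negative for Art2b (−1.53), Man1c1 (−1.33), Adamts6 (−0.53), Colq (−0.49), Wdyhv1 (−0.46) and Ahcyl2 (−0.31). Each of these 23 calls was lost without Hoil ΔCd4 mouse 3 and without WT mouse 3, while the direction was kept, and for Rbck1, Cish and Hells the adjusted p then rose to at most 0.0609. With other settings or samples left out, the call of Prim2 was lost in 11 of 12 fits. Those of Gtse1 and Slbp were lost in 10, Mcm2 in 9 and Ahcyl2 in 8. Those of Rbck1, Cish, Hells and Pim1 were lost in 2, and the others in 3 to 7.

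Against Sharpin cpdm mice 20 named genes differed by the same test. Of these, Rbck1, Cish, Mcm3 and Wdyhv1 were also called against WT mice, and the others were not. The change was more positive in Hoil ΔCd4 mice for Cd163l1 (3.41), Rbck1 (3.15), Scn4b (1.57), Cish (0.95), Itgb3 (0.62), Bbc3 (0.61), Ccnd2 (0.50), Bcl2 (0.49), Mcm3 (0.43) and Slc2a3 (0.38). It was more negative for Tspan32 (−1.57), Slc28a2b (−1.29), Bend4 (−1.16), Smc4 (−0.75), Ikzf2 (−0.63), Ift80 (−0.58), Cd8a (−0.51), Myb (−0.48), Wdyhv1 (−0.41) and Sharpin (−0.36). With other settings or samples left out, the call of Sharpin was lost in 10 of 12 fits. Those of Slc2a3, Wdyhv1 and Mcm3 were lost in 7 of 12 and that of Scn4b in 7 of 11. The call of Bbc3 was lost in 6 of 12 fits and that of Ikzf2 in 5 of 12. Those of Cd163l1, Cd8a and Smc4 were each lost in 1 fit, and the other calls were kept. Cd163l1 was at or under 3 counts in each Sharpin cpdm library, so its fitted difference is no measure of size. The Sharpin gene is mutated in the mice of this comparison, and strain cannot be told apart from genotype in it.

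Xist, which was left out of the fit, stood at 64.6 CPM in the MHC I high library of the male Hoil ΔCd4 mouse 2, above the other male libraries. Its source was not tested.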

How the results depend on the processing

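The count of 5793 genes called between the fractions of Hoil ΔCd4 mice ranged from 4462 (without mouse 3) to 6261 (edgeR), with 5234 by DESeq2 and 5752 from the 6 Hoil ΔCd4 libraries alone, and 5116 genes were called by all 3 tools. With the mouse as a fixed replicate block it was 6115. Among 140 named genes, 1388 of 1400 recomputed fold changes kept direction and call, 11 lost the call and 1 changed sign, that of Il2ra, which was not called (0.10 with all mice, −0.08 to 0.24 without 1 mouse, the lowest without mouse 2). The counts of differences were less firm. Against WT mice (51) the count was 33 by DESeq2, 1 with no filter on low counts, 30 with predicted genes kept, 29 without sample weights, 6 with no replicate block, 77 with the fixed block, 26 with voom, 23 from the 12 samples of these genotypes and 10 without the MHC I high library of Hoil ΔCd4 mouse 2 (chosen after its Xist level was seen), and 0 to 42 without 1 mouse. Against Sharpin cpdm mice (103) it was 347 by edgeR, 210 by DESeq2, 25 with no filter, 177 with at least 10 counts required, 13 with no replicate block, 393 with the fixed block, 199 from the 12 samples and 19 without that library, and 18 to 72 without 1 mouse. The share of higher genes against WT mice moved from 74.5% to 90.9% without Hoil ΔCd4 mouse 1, and against Sharpin cpdm mice from 51.5% to 36.0% with no filter, 42.9% with at least 10 counts and 37.5% without Hoil ΔCd4 mouse 2, so that lower genes were then the majority. The causes of these shifts were not tested. The 3 mice per genotype limit the tests of differences, and low genes such as Rbck1 in MHC I low cells rest on few counts.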

Other observations

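Gene families outside the fixed lists, picked after their values were seen, are given here for MHC I high against MHC I low cells of Hoil ΔCd4 mice. All 8 Schlafen genes, which restrain growth and viral replication in lymphocytes, rose, with log2 fold changes from 0.51 to 3.63 and a median of 1.32. The 6 Ms4a membrane protein genes rose too, with a median of 2.76 in both Hoil ΔCd4 and WT mice. Of 82 cytosolic ribosomal protein genes 54 were called higher and 5 lower, with a median of 0.36, while of 77 mitochondrial ones 6 were higher and 6 lower. All genes tested had a median of 0.0, 23.5% of them were called higher and 21.7% lower.

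Among 81 small nucleolar RNA genes 15 were called lower and 1 higher (median −0.33), a share of lower genes under that of all genes tested, and of 343 Zfp zinc finger genes 93 were lower and 39 higher. Of 22 TCR β variable segments 12 were called lower and 1 higher, and of 50 TCR α joining segments none was called.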
